A study of Mus musculus with 10 samples.

Results

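The genes described here encode the proteins of the cytosolic ribosome. They were taken from the deposited expression table by symbol, as all entries named Rpl or Rps followed by a number (with or without a closing a, x, y or l), together with Rpsa, Rplp0, Rplp1 and Rplp2, and without the Rps6k kinases and entries marked as pseudogenes. This gave 80 of 23479 gene entries, 49 of the large and 31 of the small ribosomal subunit, of which 76 (45 large, 31 small) had a mean of at least 10 normalized reads and entered the tests. RNA came from clone 4T1-T, grown from a single cell of the mouse mammary carcinoma line 4T1, so every group shares that clone, and cells were cultured in DMEM with bovine serum. The control group shRenilla carries a hairpin against Renilla luciferase, which mouse cells lack. The groups shSerpine2-1 and shSerpine2-2 each carry a different hairpin against Serpine2, a secreted inhibitor of thrombin and urokinase, and shSlpi-1 and shSlpi-2 each carry a different hairpin against Slpi, a secreted inhibitor of neutrophil elastase. Each of these 5 groups has 2 libraries, A and B. No label says that A and B are separate cultures, so p-values measure the spread between libraries only, which may be technical. Below, with Slpi lowered and with Serpine2 lowered stand for both hairpin groups of that target against shRenilla, not for the level of that gene alone.

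Each ribosome is built from a large subunit, which joins amino acids into protein, and a small subunit, which reads the mRNA. Nearly every ribosomal protein is present once per ribosome, so cells make these proteins in matched amounts, and most of the matching is done in translation and by degrading unassembled protein. In mammals the mRNAs start with a run of C and T bases (5′ terminal oligopyrimidine, or TOP, mRNAs) through which their translation follows mTOR signalling, and most of the genes have left many processed pseudogene copies in the genome.

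The start sites of 8 members are shown because a pyrimidine run at the start is known of the mRNAs of this gene family. These members also differ in their change with Slpi lowered, from the fall of Rpl10 to the rise of Rps28 by 0.64. Each line gives the 20 bases before and the 20 bases from the annotated start site (RefSeq on GRCm38.p6), read 5′ to 3′ on the strand of the gene, with the longest run of at least 8 C or T bases in capitals. Rplp2, Rps9 and Rps26 rose with Slpi lowered and hold such a run, at chr7:141447631-141447670, chr7:3704021-3704060 and chr10:128626487-128626526. Rps6 (chr4:86857348-86857387), Rpl15 (chr14:18270967-18271006) and Rpl4 (chr9:64173367-64173406) hold a run and did not pass the test. The run of Rpl4 ends before the annotated start and that of Rps26 begins after it, while those of Rplp2, Rps9, Rps6 and Rpl15 span it. Rps28 (chr17:33824543-33824582), which rose, and Rpl10 (chrX:74270796-74270835), which fell, hold none in this window. Rplp2, Rps9, Rpl4 and Rpl10 lie on the plus strand and the others on the minus strand.
Rplp2: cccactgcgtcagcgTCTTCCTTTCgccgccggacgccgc
Rps9: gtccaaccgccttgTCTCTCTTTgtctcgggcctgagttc
Rps26: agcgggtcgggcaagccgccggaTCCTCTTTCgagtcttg
Rps6: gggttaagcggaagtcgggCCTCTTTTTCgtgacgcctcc
Rpl15: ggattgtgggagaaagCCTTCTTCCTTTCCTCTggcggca
Rpl4: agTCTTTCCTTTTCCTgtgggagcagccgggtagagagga
Rps28: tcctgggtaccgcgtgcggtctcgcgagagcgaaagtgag
Rpl10: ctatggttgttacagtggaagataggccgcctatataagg
Of the 80 members, 60 had an annotated start in the RefSeq table, and 29 of these (48.3%) held such a run at one of their starts. Over all 27025 genes of the table the share was 18.4%. On the opposite strand the shares were 8.33% of members and 20.2% of all genes. Among the members with a tested change, the 29 with a run had a median log2 fold change of 0.29 with Slpi lowered and the 27 without had 0.32. A match describes these letters only, and the annotated start need not be the one used in these cells.

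The deposited log2 values were turned back into normalized reads (reads scaled to the depth of the library), and depth was 15877431 to 24026620 reads per library. Changes are log2 fold changes on log2(normalized reads + 1), tested with limma over all 10 libraries, and a gene is said to have risen or fallen where p, adjusted over all 12299 tested genes (Benjamini-Hochberg), was under 0.05. Serpine2 stood at 3257 and 3145 normalized reads in the shRenilla libraries, at 128 and 139 with shSerpine2-1 and at 489 and 514 with shSerpine2-2. Slpi stood at 1189 and 1313 in shRenilla, at 145 and 147 with shSlpi-1 and at 60.9 and 75.8 with shSlpi-2, so each hairpin lowered its target, and Serpine2 was also 2.40-fold and 1.95-fold lower in shSlpi-1 and shSlpi-2 and Slpi 3.38-fold lower in shSerpine2-1. The labelled epithelial origin matched the summed markers: 7 mammary epithelial genes summed to between 20147 and 28614 normalized reads per library. Lyz2 (leukocytes), Emcn (endothelium) and Lum (fibroblasts), the lowest of their lists, stayed at or under 1.16. Single genes did not all part this way, since Cd68 (leukocytes) ran from 88.9 to 146 and Pdgfra (fibroblasts) from 436 to 896. The epithelial Cldn7 ran from 43.0 to 116. Of the leukocyte list (7 genes, summed 124 to 175), the endothelial list (5 genes, 6.15 to 72.9) and the fibroblast list (5 genes, 459 to 904, nearly all Pdgfra), none had a member at 0 in every library. In bulk RNA, fewer cells of a type and less RNA per cell cannot be told apart. The 2 shSlpi-2 libraries stood apart from each other. Over all genes, the chi-square between their counts, divided by its degrees of freedom, was 9.66, where A and B of the other groups gave 1.51 to 2.64, and ribosomal RNA precursor (Rn45s) took 6.90% ± 0.02 (SD, n = 2) of their reads against group means of 0.904% to 1.92% elsewhere. The ribosomal protein genes differed most between these libraries, as given below, so their values are reported for each library.

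Together the members took 1.35% ± 0.02 (SD, n = 2) of all reads in shRenilla, 1.39% ± 0.05 in shSerpine2-1, 1.50% ± 0.09 in shSerpine2-2, 1.51% ± 0.04 in shSlpi-1 and 1.53% ± 0.28 in shSlpi-2. Levels per kilobase of exon, the scale on which levels of different genes are compared, ran from 12.3 normalized reads per kilobase (Rpl30) to 22560 (Rpl4), with a median of 2340, 2493 for the large and 1889 for the small subunit. Rpl41, whose coding length of 138 nucleotides was the shortest among the members, stood at 15595 per kilobase, and Rps15 (9699) and Rps6 (9246) were also among the highest. Coding length here is that of the longest annotated coding sequence of a gene, which can exceed that of its usual protein. Rpl34 (28.0), Rps27 (36.3), Rpl21 (211) and Rpl35a (381) stood lowest above Rpl30. The highest level was 1831 times the lowest. The count for a gene with shared sequence can depend on how many of its reads match no other place. In Rps27, 1.48% of all 76-base windows of the transcript occurred in no other annotated transcript. This share was 28.5% in Rpl30, 59.0% in Rpl35a, 69.8% in Rpl34 and 78.3% in Rpl21. Of the high members named above, Rps6 had 15.9%, Rpl41 75.6%, Rps15 80.7% and Rpl4 91.7%. The part of shared sequence in these levels was not tested. Of the 80 members, 76 shared at least 1 window with another gene, mostly a pseudogene. How reads with several matches were counted is not given in the sources used here, so levels of members with shared windows are uncertain. Rpl30, with 142 reads over all libraries, and Rps27, with 173, are the members whose values rest on fewest reads among those tested.

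With the Slpi hairpins, most ribosomal protein genes rose by a small amount. Over both hairpins 46 of 76 tested members rose (60.5%) and 1 fell, Rpl10, by limma with an adjusted p under 0.05, while 16.5% of all 12299 tested genes rose and 18.3% fell. The median log2 fold change of the members was 0.32, with a middle range (quartiles) of 0.16 to 0.42, against a median of -0.01 over all tested genes. The 46 rises ran from 0.17 (Rpl27a) to 0.88 (Rpl30). In 43 members all 4 Slpi hairpin libraries lay above both shRenilla libraries, in 2 all lay below and in 31 they overlapped, where 19.5% of all tested genes had all 4 above and 20.6% all 4 below. The count rests in part on single libraries and on the filter: 19 members changed without shRenilla library A, 27 without library B and 26 with no filter on low values. Without both shSlpi-2 libraries, so that shSlpi-1 alone stood for the target, 54 changed with a median of 0.24.

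With Serpine2 lowered, fewer members rose. Over both hairpins 11 of 76 rose (14.5%), where 10.7% of all tested genes did, and 0 fell by limma with its adjusted p (3 at an unadjusted p under 0.05, and 0 by limma-voom), where 10.8% of all genes fell. The share of members that rose is close to that of all genes. The median log2 fold change was 0.10, against a value within 0.01 of 0 over all tested genes. In 24 members all 4 Serpine2 hairpin libraries lay above both shRenilla libraries, in 4 all lay below and in 48 they overlapped, where 18.8% of all tested genes had all 4 above and 18.9% all 4 below. The count fell to 5 with shRenilla A left out, 4 with shRenilla B left out, 7 without shSerpine2-1 library B and 6 without shSerpine2-2 library B, and was 31 without shSlpi-2 A or without shSlpi-2 B. It was 6 with no filter on low values, 19 with centring on exonic length and 34 when the fit held the compared libraries alone. Both comparisons use the same shRenilla libraries, so their values are not independent of each other. Values of each member stand side by side in the plot of changes.

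**Figure D1:**
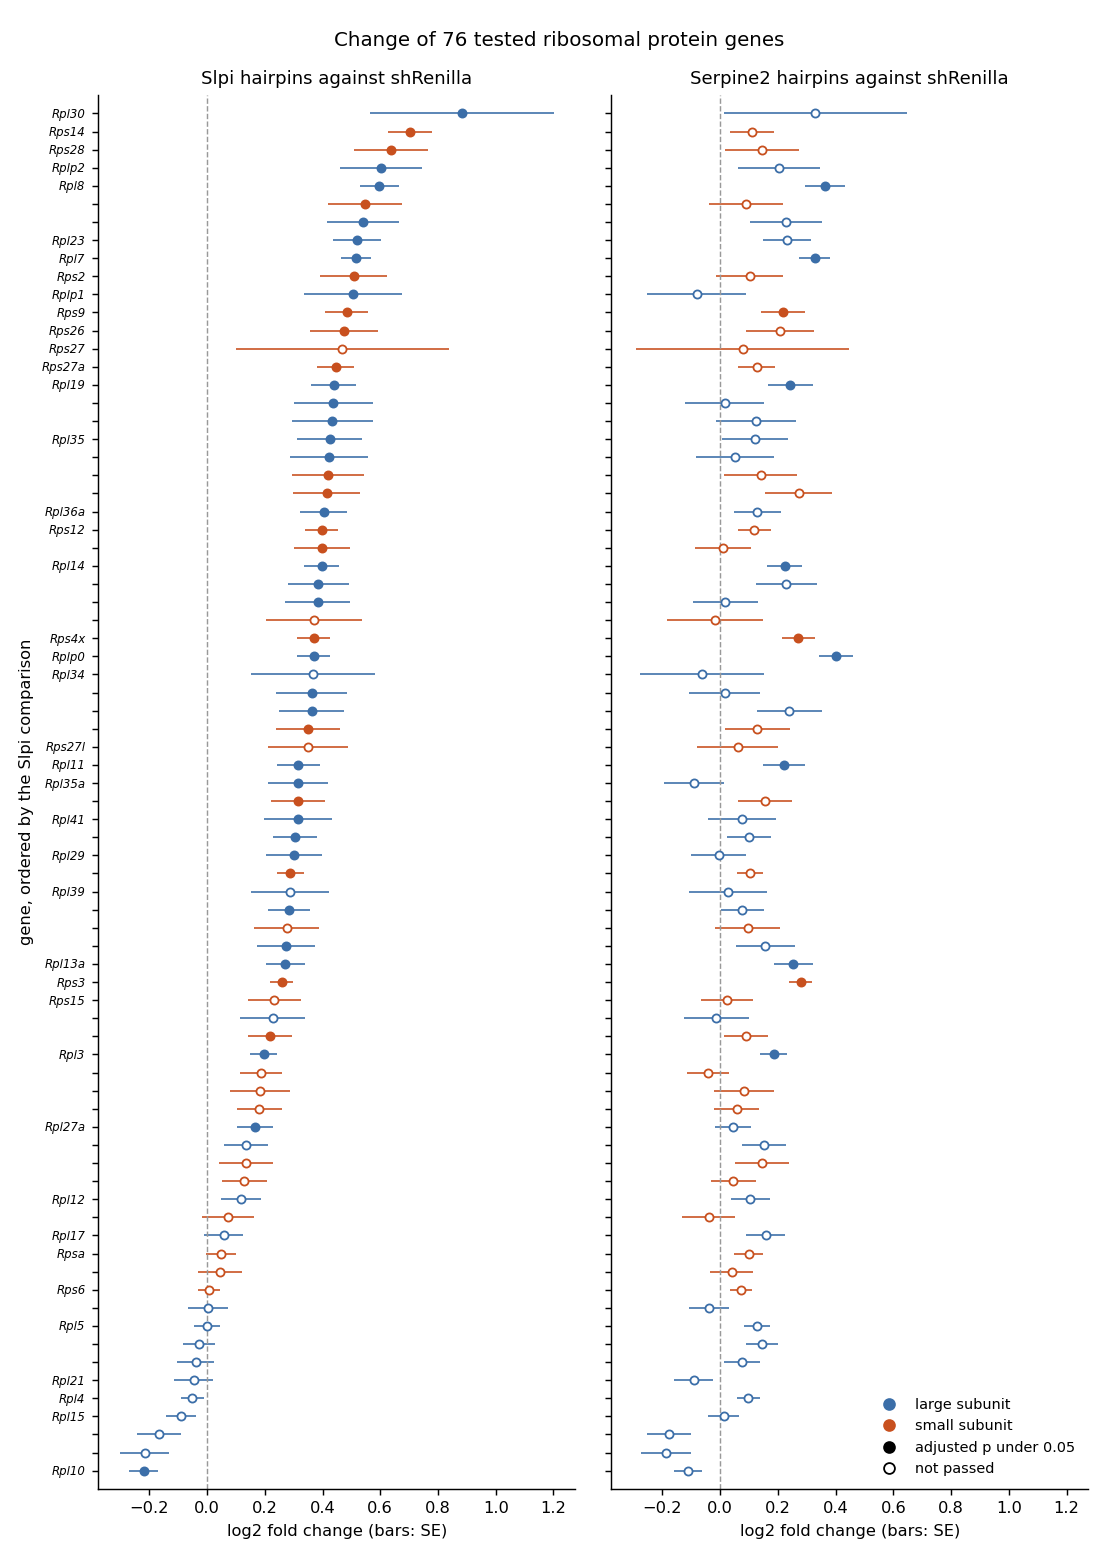
Log2 fold change of the 76 tested members (rows, ordered by the Slpi comparison, with names for members described in the text) with Slpi (left) and Serpine2 (right) lowered, against the same 2 shRenilla libraries. Points are limma estimates over 4 hairpin libraries, bars 1 standard error, colours the subunit, and filled points have an adjusted p under 0.05: 47 on the left (46 higher, Rpl10 lower) and 11 on the right.

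The 4 lines differed in how many members rose. Against shRenilla, 3 members rose with shSerpine2-1 (5.09% of all genes did), 18 with shSerpine2-2 (14.2%), 19 with shSlpi-1 (7.65%) and 48 with shSlpi-2 (20.4%). The members' shares were 3.95%, 23.7%, 25% and 63.2%, so that shSerpine2-1 lies at the level of all genes. Rpl10 fell with shSlpi-2 (21.9% of all genes fell), and 0 fell in the other lines by limma (0, 2 and 2 at an unadjusted p under 0.05 with shSerpine2-1, shSerpine2-2 and shSlpi-1, and 0 by limma-voom), where 5.38%, 13.4% and 9.88% of all genes fell. Median log2 fold changes were 0.01, 0.18, 0.24 and 0.37. Slpi itself was also 3.38-fold lower in shSerpine2-1, and the part of the level of either target in these changes was not tested. Over the 4 lines, 26 members rose in none, 30 in 1 line, 5 in 2, 12 in 3 and 3 in all. The 3 that rose in every line were Rplp0, Rpl7 and Rps3.

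Single libraries decided several of these counts. By library, the median of the members against the shRenilla mean was -0.03 and 0.05 (shSerpine2-1 A and B), 0.12 and 0.26 (shSerpine2-2), 0.28 and 0.20 (shSlpi-1) and 0.11 and 0.62 (shSlpi-2). The 2 libraries of shSlpi-2 thus lie on either side of shSlpi-1. From A to B of shSlpi-2, 73 of 76 members were higher, by a median of 0.40 on the log2 scale. The 483 other tested genes with coding lengths up to 400 nucleotides were higher by 0.26 and all other genes by -0.01. Smaller shifts were present in every group. B was higher than A in 62 members of shRenilla, 66 of shSerpine2-1, 71 of shSerpine2-2 and 21 of shSlpi-1. The medians of these shifts were 0.05, 0.08, 0.14 and -0.05. The median with shSlpi-2 was 0.62 without its library A and 0.11 without B, and 27 members changed without shRenilla library A. For shSerpine2-1 no member was called without shRenilla library B or without either of its own libraries. For shSerpine2-2 the count was 6 without its library B and 10 without shRenilla library A, and for shSlpi-1 it was 6 without shRenilla A, shRenilla B or its own library A and 10 without its library B. Without either shSlpi-2 library the counts were 16 or 17 (shSerpine2-1), 47 (shSerpine2-2) and 54 (shSlpi-1), in a fit whose shared spread leaves that library out.

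**Figure D2:**
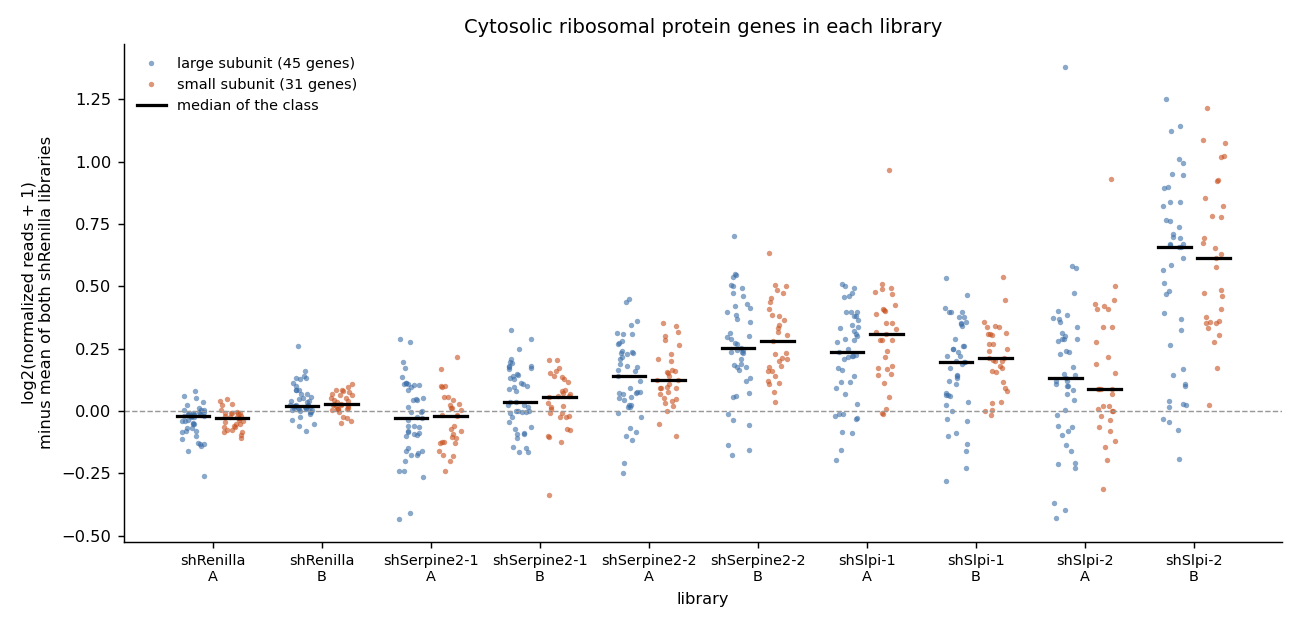
Each point is 1 tested member in 1 library, as log2(normalized reads + 1) minus the mean of both shRenilla libraries (45 large subunit genes in blue, 31 small subunit genes in orange), with black bars for the class medians. The shSlpi-2 B library stands highest, with class medians of 0.66 and 0.62, and shSlpi-2 A has 0.13 and 0.09.

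Rises were found in both subunits. With Slpi lowered, 29 of 45 large subunit genes rose (64.4%) and 1 fell, and 17 of 31 small subunit genes rose (54.8%), with medians of 0.31 and 0.35. Of all tested genes 16.5% rose and 18.3% fell. With Serpine2 lowered 8 large and 3 small subunit genes rose (17.8% and 9.68%), with medians of 0.10 and 0.10. Of all tested genes 10.7% rose, so the small subunit share is close to that of all genes. By line the numbers were 2 and 1 (shSerpine2-1), 11 and 7 (shSerpine2-2), 11 and 8 (shSlpi-1) and 29 and 19 (shSlpi-2). The shares were 4.44% and 3.23% in shSerpine2-1, below the 5.09% of all tested genes, and 24.4% and 22.6% in shSerpine2-2, against 14.2%. They were 24.4% and 25.8% in shSlpi-1, against 7.65%, and 64.4% and 61.3% in shSlpi-2, against 20.4%. The median of the large subunit genes minus that of the small ones was -0.02, -0.01, -0.03 and 0.02 in the 4 lines, and between 0.05 and -0.07 in single libraries, so the difference had no common sign. Summed reads gave another picture. Large subunit genes summed to 1.91 and 1.90 times the small subunit genes in the shRenilla libraries, to 1.93 and 1.92 in shSerpine2-1, 1.85 and 1.82 in shSerpine2-2, 1.78 and 1.79 in shSlpi-1 and 1.79 and 1.76 in shSlpi-2. The ratio was thus lower than in shRenilla in 3 lines, by more than the difference between A and B. Rpl4, which did not rise, held 21.1% of the large subunit reads in shRenilla. Without it, an alternative added after seeing the data, the ratio was 1.50 ± 0.00 (SD, n = 2) in shRenilla, 1.49 ± 0.01 in shSerpine2-1, 1.47 ± 0.01 in shSerpine2-2, 1.45 ± 0.00 in shSlpi-1 and 1.46 ± 0.02 in shSlpi-2.

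**Figure D3:**
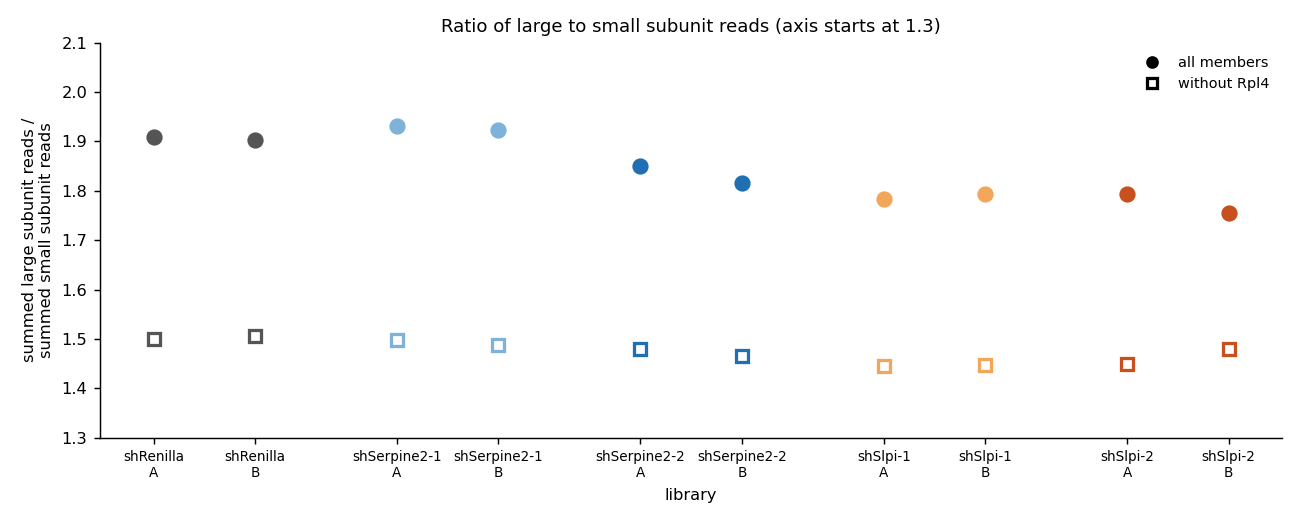
Summed normalized reads of large subunit genes divided by those of small subunit genes in each library, for all members (circles) and without Rpl4 (squares). With all members the ratio is 1.91 and 1.90 in shRenilla and between 1.76 and 1.85 in the shSerpine2-2, shSlpi-1 and shSlpi-2 libraries, and without Rpl4 all libraries lie between 1.45 and 1.51.

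The P stalk is the flexible arm of the large subunit that calls in the elongation factors. Rplp0 is its base, Rplp1 and Rplp2 form the pairs attached to it, and Rpl12 sits beside it. Rplp0 (chr5:115559467-115563727, plus strand) was measured at 4845 and 4345 normalized reads in shRenilla, 5597 and 5750.2 with shSerpine2-1, 6268 and 6704 with shSerpine2-2, 5726 and 5868 with shSlpi-1 and 5598 and 6552 with shSlpi-2. All 8 hairpin libraries lay above both controls, and the gene rose with Serpine2 (log2 fold change 0.40, SE 0.06, limma adjusted p = 0.000202) and with Slpi lowered (log2 fold change 0.37, SE 0.06, limma adjusted p = 0.000141). Rplp2 was measured at 1105 and 1345 normalized reads in shRenilla, 1152 and 1288 with shSerpine2-1, 1480.3 and 1772 with shSerpine2-2, 1724 and 1607 with shSlpi-1 and 1576 and 2695 with shSlpi-2. The shSerpine2-1 libraries overlapped the controls, and the Slpi libraries all lay above them, with shSlpi-2 B highest (log2 fold change 0.60, SE 0.14, limma adjusted p = 0.00338). Rplp1 was measured at 2940.4 and 3232 normalized reads in shRenilla, 2320.2 and 2889.6 with shSerpine2-1, 2939.6 and 3650.4 with shSerpine2-2, 4055 and 3217 with shSlpi-1 and 3828 and 7348 with shSlpi-2. Slpi library values overlapped the controls, and shSlpi-2 B was the highest of all libraries (log2 fold change 0.51, SE 0.17, limma adjusted p = 0.0301). The Slpi call of Rplp1 was lost with no filter on low values (limma adjusted p = 0.146) and without shRenilla A, shRenilla B or shSlpi-1 A (0.22, 0.117 and 0.0998), and that of Rplp2 without shRenilla A (0.103). Rpl12 lay between 1260 and 1615 normalized reads and passed in neither comparison (0.10 with Serpine2 and 0.12 with Slpi lowered).

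Rpl5 and Rpl11 carry the 5S ribosomal RNA into the large subunit, and the same particle, when free, binds Mdm2 and so holds back p53 degradation. Rpl11 was measured at 1838 and 1811 normalized reads in shRenilla, 1963 and 2069 with shSerpine2-1, 2138 and 2358 with shSerpine2-2, 2306 and 2323 with shSlpi-1 and 1968 and 2529 with shSlpi-2. Hairpin libraries all lay above the controls, and the gene rose with Serpine2 (log2 fold change 0.22, SE 0.07, limma adjusted p = 0.0407) and with Slpi lowered (log2 fold change 0.32, SE 0.07, limma adjusted p = 0.00314). Rpl5 was measured at 8549 and 8491 normalized reads in shRenilla, 9364 and 9384 with shSerpine2-1, 9247 and 9261 with shSerpine2-2, 8403 and 8516 with shSlpi-1 and 9135 and 8071 with shSlpi-2. Its Serpine2 libraries lay above the controls and its Slpi libraries overlapped them, and neither comparison passed (0.13, adjusted p = 0.0537, and 0.00, adjusted p = 0.994, limma). The Serpine2 call of Rpl11 was lost with no filter on low values (limma adjusted p = 0.186), quantile normalization (0.102), total-read scaling (0.0628) or voom (0.0514) and without either shRenilla library (0.161 and 0.246), among others, and its Slpi call without shRenilla B (0.0515). Only 7.56% of the windows of Rpl5 and 39.1% of those of Rpl11 were unique.

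Around the peptidyl transferase centre and the exit tunnel, 2 of 6 members rose with Slpi lowered, 1 fell and 3 did not pass. Of all tested members 60.5% rose, and of all tested genes 16.5% rose and 18.3% fell. Rpl8 and Rpl3 reach into the centre itself. Rpl8 (chr15:76904078-76906314, plus strand), whose windows were 96.1% unique, was measured at 3544 and 3635 normalized reads in shRenilla, 4048 and 4389.6 with shSerpine2-1, 4853 and 5259 with shSerpine2-2, 5104 and 4773 with shSlpi-1 and 5335 and 6689 with shSlpi-2. All hairpin libraries lay above the controls, with those of shSerpine2-1 nearest to them, and Rpl8 was among the largest rises for Slpi (log2 fold change 0.60, SE 0.07, limma adjusted p = 6.66e-06) and for Serpine2 lowered (log2 fold change 0.36, SE 0.07, limma adjusted p = 0.00156). Rpl3 rose by less, by 0.20 with Slpi and 0.19 with Serpine2 lowered (SE 0.05 in both, limma adjusted p = 0.00356 and 0.00939). The Serpine2 call of Rpl3 was lost without shRenilla A or B (limma adjusted p = 0.0806 and 0.087), and its Slpi call with centring on exonic length (0.142). Rpl10 joins the large subunit late in assembly and makes it competent to join the small one. Rpl10 (chrX:74270812-74273135, plus strand) was measured at 5823 and 5963 normalized reads in shRenilla, 5655 and 5526 with shSerpine2-1, 5434 and 5212 with shSerpine2-2, 5291 and 5375 with shSlpi-1 and 4478 and 5154 with shSlpi-2. All hairpin libraries lay below both controls, lowest in shSlpi-2 A, and Rpl10 was the only member to fall (with Slpi lowered -0.22, SE 0.05, limma adjusted p = 0.00275, and with Serpine2 lowered -0.11, adjusted p = 0.123). Only 15.1% of its windows were unique, and the call was lost without shRenilla library B.

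Rpl4 lines the exit tunnel and stood highest per kilobase. It was measured at 34086 and 34306 normalized reads in shRenilla, 36731 and 39046 with shSerpine2-1, 34801 and 35948 with shSerpine2-2, 33543 and 33410.2 with shSlpi-1 and 31976 and 33119 with shSlpi-2. The Serpine2 libraries all lay above the controls and the Slpi libraries all below them, but the changes were small and neither passed (0.10 and -0.05, SE 0.04 in both, limma adjusted p = 0.1 and 0.363). Rpl17, at the mouth of the tunnel, ran from 872 to 1133 normalized reads and Rpl39, a very short protein of the tunnel wall, from 3407 to 6314. Neither passed in either comparison, with log2 fold changes of 0.06 and 0.29 with Slpi lowered.

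On the small subunit, 4 of 5 members along the path of the mRNA rose with Slpi lowered and 1, Rpsa, did not pass. Of all tested members 60.5% rose and of all tested genes 16.5%. Whether this part differs from the other members was not tested. Rps2 and Rps3 form the entry of the mRNA channel, and Rps14 and Rps26 line its exit on the platform. Rps14 was measured at 831 and 949.8 normalized reads in shRenilla, 815 and 844 with shSerpine2-1, 1026 and 1202 with shSerpine2-2, 1247 and 1101 with shSlpi-1 and 1693 and 1889 with shSlpi-2. The shSlpi-2 libraries stood highest (log2 fold change 1.01 in that line), and here library A was close to B. Rps14 rose with Slpi lowered (log2 fold change 0.70, SE 0.08, limma adjusted p = 3.37e-06) and had 0.11 (adjusted p = 0.319) with Serpine2 lowered. Rps3, all of whose windows were unique, was measured at 6581 and 6318 normalized reads in shRenilla, 7251 and 7437 with shSerpine2-1, 8239 and 8427 with shSerpine2-2, 7265 and 7258 with shSlpi-1 and 8134 and 8243 with shSlpi-2. Every hairpin library exceeded both controls, in a narrow spread, and Rps3 rose with Serpine2 (log2 fold change 0.28, SE 0.04, limma adjusted p = 0.000134) and Slpi lowered (log2 fold change 0.26, SE 0.04, limma adjusted p = 8.37e-05).

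Rps26 was measured at 3004 and 3173 normalized reads in shRenilla, 3096 and 3270.4 with shSerpine2-1, 3755 and 4232 with shSerpine2-2, 4078 and 3957 with shSlpi-1 and 3589.9 and 5852 with shSlpi-2. Its Slpi libraries all lay above the controls, from 3590 in shSlpi-2 A to 5852 in shSlpi-2 B (log2 fold change 0.47, SE 0.12, limma adjusted p = 0.00501). Rps2, with 31.2% unique windows, rose by 0.51 (SE 0.12, limma adjusted p = 0.00285) with Slpi lowered, and shSlpi-2 B (1599 normalized reads) again stood highest against 796 and 886 in the controls. The calls of Rps26 and Rps2 were lost without shRenilla library A, and that of Rps26 with no filter (limma adjusted p = 0.0567). Rpsa, known also as a laminin receptor precursor, lay between 6630 and 7664 and passed in neither comparison. Rps3a is listed under the symbol Rps3a1, which the name rule does not take, and rose by 0.40 with Slpi and by 0.23 with Serpine2 lowered.

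Rps6, the substrate of the S6 kinases downstream of mTOR, was measured at 7899 and 7977 normalized reads in shRenilla, 8261 and 8379 with shSerpine2-1, 8217 and 8565 with shSerpine2-2, 7898 and 7961 with shSlpi-1 and 7941 and 8078 with shSlpi-2. All groups lay close together, and it passed in neither comparison (0.01, SE 0.04, with Slpi lowered), with 15.9% unique windows. Rps27a, made as a fusion with ubiquitin, was measured at 843 and 855 normalized reads in shRenilla, 863 and 859 with shSerpine2-1, 947 and 1049.9 with shSerpine2-2, 1084 and 1054 with shSlpi-1 and 1155 and 1353 with shSlpi-2. All 4 Slpi libraries lay above the controls, and it rose with Slpi lowered (log2 fold change 0.44, SE 0.07, limma adjusted p = 7.12e-05) but did not pass with Serpine2 lowered (0.13, adjusted p = 0.184).

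**Figure D4:**
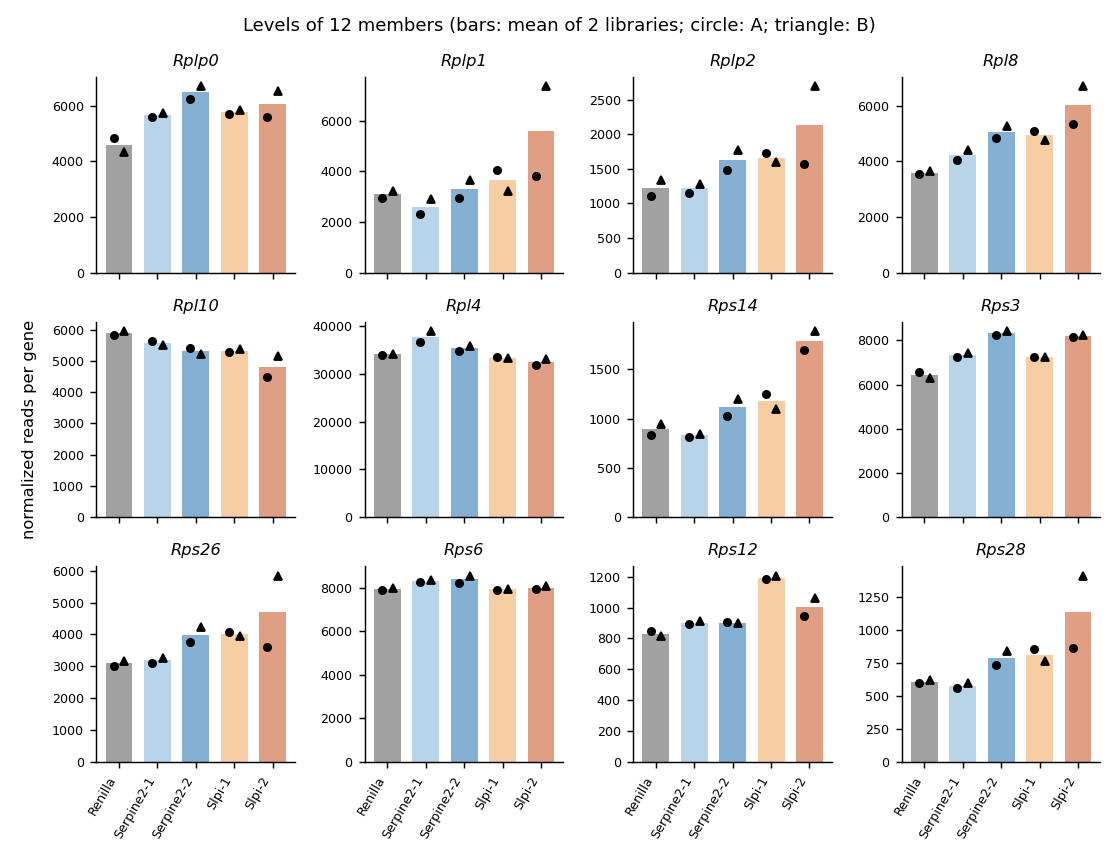
Normalized reads of 12 members in every library (circle for library A, triangle for library B), with bars for the mean of the 2 libraries of each group and axes from 0. Rplp0 and Rps3 stand above the control in all 4 lines, Rps6 and Rpl4 stay near it, Rpl10 lies below it, and Rplp1, Rplp2, Rps26 and Rps28 are highest in shSlpi-2 B.

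Several members have a paralog with tissue-restricted expression, and these stayed near 0. Rpl3l (a muscle form of Rpl3), Rpl10l and Rpl39l (forms known from testis) had 10, 1 and 6 reads over all 10 libraries, all with windows that are at least 99.9% unique. Rpl26 also had 1 read in all, with 0 in 9 of 10 libraries, where a count of 0 allows up to 3 reads (2.30 to 3.48 normalized reads). Of the Rpl26 windows 52.0% were unique, and whether its reads were counted under another symbol was not tested. Rps27l, a p53-responsive paralog of Rps27, ran from 908 to 1652 normalized reads, and Rps27, whose windows were nearly all shared, from 10.5 to 28.4, and neither passed with Slpi lowered (0.35 and 0.47). Rps4x was measured at 6779.5 and 6871 normalized reads in shRenilla, 7091 and 7867 with shSerpine2-1, 8505 and 9697 with shSerpine2-2, 8716 and 8418 with shSlpi-1 and 8629 and 9561 with shSlpi-2. All hairpin libraries lay above the controls, and it rose with Serpine2 (log2 fold change 0.27, SE 0.06, limma adjusted p = 0.00306) and Slpi lowered (log2 fold change 0.37, SE 0.06, limma adjusted p = 0.00011). Its Serpine2 call was lost without shRenilla B (limma adjusted p = 0.0517). No entry named Rps4l was in the table.

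The largest rises with Slpi lowered were those of Rpl30, Rps14, Rps28, Rplp2 and Rpl8. Rpl30 had 0.88 (SE 0.32, limma adjusted p = 0.0408) on 7.37 to 25.1 normalized reads, and lost its call without either shRenilla library, among other alternatives. Rps28, at the exit of the mRNA channel, was measured at 598 and 618 normalized reads in shRenilla, 556 and 598 with shSerpine2-1, 731 and 844 with shSerpine2-2, 857 and 768 with shSlpi-1 and 862 and 1414 with shSlpi-2. The Slpi libraries all lay above the controls and shSlpi-2 B lay well above the rest (log2 fold change 0.64, SE 0.13, limma adjusted p = 0.00108). The largest rises with Serpine2 lowered were those of Rplp0, Rpl8, Rpl7, Rps3 and Rps4x. Rpl7 was measured at 2924 and 2979 normalized reads in shRenilla, 3381 and 3501 with shSerpine2-1, 3793 and 4187 with shSerpine2-2, 4092 and 4078 with shSlpi-1 and 4092 and 4650.2 with shSlpi-2. All hairpin libraries lay above both controls, and it rose by 0.33 with Serpine2 and 0.52 with Slpi lowered (SE 0.05 in both, limma adjusted p = 0.000496 and 2.07e-06).

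Hairpins against the same target were compared directly. Between the Serpine2 hairpins, 11 members were higher with shSerpine2-2 (7.69% of all genes were) and 0 lower by limma (0 also at an unadjusted p under 0.05 and by limma-voom, and 6.98% of all genes), with a median of 0.21. Rps14 (log2 fold change 0.42, SE 0.09, limma adjusted p = 0.0048), Rps9 (0.35) and Rpl23 (0.34) differed most among those that passed, and with no filter on low values Rps9 and Rpl23 did not pass (limma adjusted p = 0.0975 and 0.136). Between the Slpi hairpins, 11 members were higher with shSlpi-2 (12.3% of all genes were) and 1 lower (13.7%), with a median of 0.12. Rps14 (log2 fold change 0.61, SE 0.09, limma adjusted p = 0.000131), Rplp1 (0.55) and Rps28 (0.44) differed most upwards among those that passed, and with no filter Rplp1 and Rps28 did not pass (limma adjusted p = 0.196 and 0.148). Rps12, of the head of the small subunit, went the other way (log2 fold change -0.25, SE 0.07, limma adjusted p = 0.0109) and was measured at 846 and 818 normalized reads in shRenilla, 892 and 914 with shSerpine2-1, 906 and 899.8 with shSerpine2-2, 1182 and 1208 with shSlpi-1 and 948 and 1063 with shSlpi-2. Both shSlpi-1 libraries lay above both shSlpi-2 libraries, which lay above the controls. These counts change with single libraries. Between the Serpine2 hairpins 0 members were called without shSerpine2-1 A or shSerpine2-2 B, 3 without shSerpine2-1 B and 6 without shSerpine2-2 A. Between the Slpi hairpins 4 and 2 were called without shSlpi-1 A and B, 7 without shRenilla B, shSerpine2-1 A or shSerpine2-1 B, and the median was 0.34 without shSlpi-2 A and -0.06 without shSlpi-2 B. Without shSlpi-2 A and B, 49 members were called between the Serpine2 hairpins in either case, and 56 and 29 between the Slpi hairpins.

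Among the members, the change went with the length of the coding sequence (the longest annotated for each gene), which has a median of 462 nucleotides. Across the 76 tested members, Spearman's rho between coding length and the change was -0.42 with Slpi lowered, -0.45 with shSlpi-2, -0.27 with shSlpi-1, -0.05 with shSerpine2-2 and 0.55 with shSerpine2-1. The genes share their libraries, and these values are descriptions. In shSerpine2-1 shorter members were lower, and in both Slpi lines they were higher. Other genes of the same length are given beside them. The 25 members with coding lengths up to 400 nucleotides had medians of -0.08 (shSerpine2-1), 0.18 (shSerpine2-2), 0.25 (shSlpi-1) and 0.54 (shSlpi-2), against -0.09, 0.05, 0.06 and 0.17 for the 483 other genes of that length. In members with coding lengths of 600 to 1000 nucleotides (20 genes) the medians were 0.12, 0.20, 0.15 and 0.32, against -0.01, 0.06, 0.04 and 0.07. Centring each library on genes of like exonic length left 45 members changed with Slpi lowered, at a median of 0.23, and raised the count with Serpine2 lowered to 19, at a median of 0.11. The part of length, or of the Rn45s share that was highest in shSlpi-2, in these changes was not tested.

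**Figure D5:**
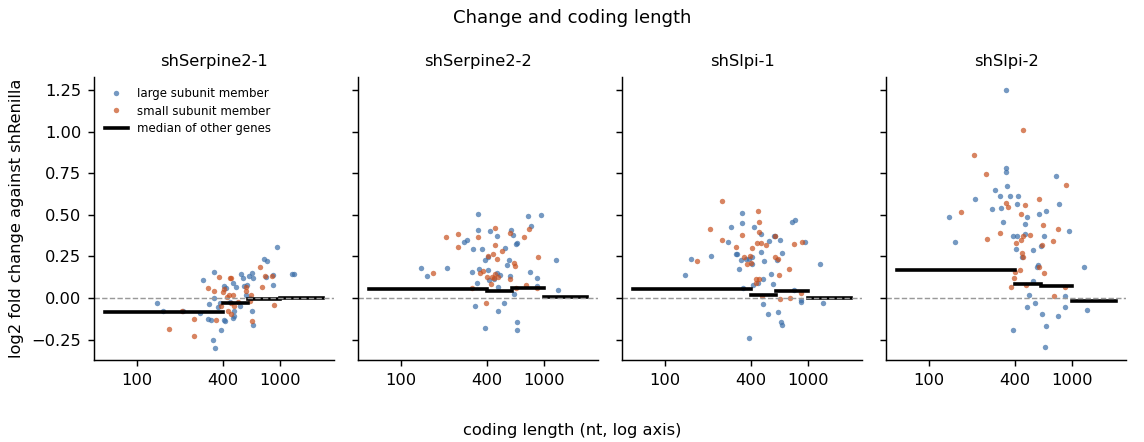
Log2 fold change of each tested member against shRenilla (points) by coding length on a log axis, for the 4 lines, with black lines for the median of all other tested genes in bins of coding length. Members with up to 400 nucleotides have a median of -0.08 in shSerpine2-1 and 0.54 in shSlpi-2, where other genes of that length have -0.09 and 0.17.

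Members were also split, after seeing the data, by how much sequence they share with other genes. Beside the counts below, 60.5% of all tested members and 16.5% of all tested genes rose with Slpi lowered. With Slpi lowered, 23 of 33 members with under 50% unique windows rose (median 0.32) and 23 of 43 others (median 0.31). By mean normalized reads (not per length), 28 of the 38 lower members rose and 18 of the 38 higher ones, with medians of 0.38 and 0.25. Of 6 ribosomal protein pseudogene entries in the table, 4 were tested. Rps15a-ps6 and Rps15a-ps4 rose with Slpi lowered, by 0.41 and 0.42, and Rpl31-ps12 and Rps19-ps3 did not pass (-0.17 and 0.06).

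The other genes that make ribosomes and feed them were counted in the same way, beside shares of all tested genes of 10.7% rising and 10.8% falling with Serpine2 lowered and 16.5% rising and 18.3% falling with Slpi lowered. Of 7 further ribosomal proteins and partners outside the name rule, 5 rose with Slpi and 3 with Serpine2 lowered, and 0 fell in either (medians 0.30 and 0.20). They include Fau (0.54 with Slpi lowered), which much like Rps27a is made as a fusion, here with a ubiquitin-like protein, and the scaffold Gnb2l1 (Rack1, 0.30). Of 46 ribosome assembly factors, 32 rose with Serpine2 lowered (69.6%) and 0 fell, with a median of 0.22, while 22 rose (47.8%) and 4 fell (8.70%) with Slpi lowered, with a median of 0.12. The ribosomal protein genes had 11 of 76 rising (14.5%) with Serpine2 and 46 of 76 (60.5%) with Slpi lowered, and whether the families differ was not tested. With Slpi lowered Gar1 (0.68) and Nhp2 (0.57), of the particles that make pseudouridine in ribosomal RNA, Fbl (0.44), which methylates it, and Eif6 (0.51), which keeps the subunits apart, had the smallest p. In shSerpine2-1, 3 of 76 ribosomal protein genes rose (3.95%) and 14 of 46 assembly factors (30.4%), where 5.09% of all tested genes did.

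Of 15 genes of RNA polymerase I and its factors, 5 rose (33.3%) and 1 fell with Serpine2 lowered and 5 rose and 2 fell (13.3%) with Slpi lowered. Polr1c (0.40), Rrn3 (0.25) and Ubtf (0.23) rose and Taf1d (-0.18) fell in the latter. Of 16 elongation factors and other mRNAs of the TOP class, 5 rose with Serpine2 (31.2%) and 7 with Slpi lowered (43.8%) and 0 fell, with medians of 0.13 and 0.11. Eef1b2 (0.42), Eef1d (0.44) and Eef1g (0.27), subunits of the exchange factor of elongation factor 1, and Eef2 (0.18) led the rises with Slpi lowered. Of 35 tested initiation factors, 13 rose (37.1%) and 2 fell with Serpine2 lowered and 11 rose (31.4%) and 4 fell (11.4%) with Slpi lowered, among them Eif3b (0.48) and Eif1 (0.20) upwards and Eif2s1 (-0.33) and Eif4g2 (-0.22) downwards. Marker genes of cell types moved in the same comparisons. All 7 mammary epithelial markers rose with Slpi lowered and 4 with Serpine2 lowered (medians 0.42 and 0.29). Pdgfra, the only tested fibroblast marker, fell with Slpi (-0.68) and with Serpine2 lowered (-0.35). Cd68, the only tested leukocyte marker, passed in neither (-0.19 and -0.03) and fell with shSlpi-2 (-0.44). No endothelial marker was tested. The part of these markers in the result was not tested.

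Among members grouped by what is known of them, 18 genes tested here are mutated in Diamond-Blackfan anaemia, an inherited red cell aplasia. Of these, 9 rose with Slpi lowered (50%, against 60.5% of all tested members and 16.5% of all genes). With Serpine2 lowered 1 rose (5.56%, below the 14.5% of all tested members and the 10.7% of all genes). The medians were 0.32 and 0.09, and 0 fell. Rps28, Rpl11, Rps26 and Rpl35 (0.42) had the smallest p. Of 14 proteins of the head of the small subunit, 8 rose with Slpi (57.1%) and 1, Rps3, with Serpine2 lowered (7.14%). Both shares lie below those of all tested members, and the medians were 0.33 and 0.12. Rps12, Rps27a, Rps3 and Rps28 had the smallest p. Whether either group differs from the other members was not tested.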

How the data were processed

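Per the labels' protocols, column-purified, DNase-treated total RNA (100 ng) of 10 libraries was made into amplified cDNA (NuGEN Ovation RNA-Seq V2) and sequenced as 76-base reads. The submitters' processing notes name Bowtie2, HTSeq, DESeq and build mm10. Versions, annotation, strand use and the treatment of reads with several matches are, in the sources used here, not given. The table deposited by the authors holds log2 values with a floor of 6.733366499, which looks like a variance-stabilized scale as DESeq writes it, though no label says so. Inverting it gave normalized reads, of which 100% were whole reads within 0.01 of a read after division by the step of each library. The depth of 15877431 to 24026620 reads gives floors of 3 reads, and these cover counting error only. Tests used limma 3.58.1 in R 4.3.3 (eBayes with trend, 5 group means, 2-sided) on log2(normalized reads + 1) for genes averaging 10 or more. The planned unit was normalized values, so the inverted values stood in for it. The script was tested on simulated data. Lengths, positions and the 76-base windows come from GENCODE M21 on GRCm38. Lists were described by counts and medians, with no test of a list. Members, lists and the rule for named genes were chosen with earlier results of these data known. The rule took members by role, those with the largest change in each comparison, the highest and lowest per kilobase, and up to 4 genes of each further list with the smallest p in the Slpi comparison. A few genes that enter the counts are not reported here by name. Alternatives covered the filter, pseudocount, scaling, transformation, voom, length, the libraries in the fit, a replicate block and each library left out.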

Additional observations from a re-analysis of the deposited data

Results flagged for a closer look

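Members are listed here because the 2 hairpins against the same target gave different levels, by limma on the difference itself with an adjusted p under 0.05. Between shSerpine2-2 and shSerpine2-1 all 11 such members were higher with shSerpine2-2 (14.5% of members, where 7.69% of all tested genes were). In 10 of them, the log2 differences were 0.18 for Rps3, 0.21 for Rpl7, 0.25 for Rpl13a, 0.26 for Rpl8, 0.28 for Rps4x, 0.33 for Rpl19, 0.33 for Rpl36a, 0.34 for Rpl23, 0.35 for Rps9 and 0.42 for Rps14. Between shSlpi-2 and shSlpi-1, 11 members were higher with shSlpi-2 (14.5%), a share close to the 12.3% of all tested genes. In 10 of these members the log2 differences were 0.17 for Rps3, 0.23 for Rps27a, 0.25 for Rpl14, 0.28 for Rpl8, 0.28 for Rpl36a, 0.37 for Rpl29, 0.38 for Rpl35, 0.44 for Rps28, 0.55 for Rplp1 and 0.61 for Rps14. Rps12 was lower, by -0.25, where 13.7% of all tested genes were lower. Rps3, Rpl8, Rpl36a and Rps14 appear in both comparisons. The levels compared come from different libraries, but the spread of each gene was estimated once over all 10. The calls of the comparisons are therefore not independent of each other. The shSlpi-2 libraries A and B differed from each other by a median of 0.40 over the members.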

How the results depend on the processing

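Pseudocount 8, quantile normalization, scaling by total reads without Rn45s, the deposited log2 values and limma-voom kept each count of changed members within 1.5 times. Counts below follow the order Serpine2, Slpi, shSerpine2-1, shSerpine2-2, shSlpi-1 and shSlpi-2 against shRenilla, then shSerpine2-2 against shSerpine2-1 and shSlpi-2 against shSlpi-1, for which the counts as reported were 11, 47, 3, 18, 19, 49, 11 and 12. With no filter on low values, where more genes are tested, they were 6, 26, 1, 10, 9, 35, 2 and 4. When the fit held the compared libraries alone they were 34, 41, 19, 48, 53, 36, 49 and 2, and with centring on exonic length 19, 45, 11, 28, 23, 47, 6 and 21. Leaving out each library in turn gave 4 to 31, 19 to 62, 0 to 17, 6 to 47, 6 to 54, 27 to 63, 0 to 49 and 2 to 56. A group left with 1 library is assumed to vary like the others. With a replicate block the counts were 12, 54, 3, 24, 29, 54, 17 and 19. The letters A and B pair nothing by the labels. Over all tested genes, the B minus A differences of 10 pairs of groups correlated between -0.07 and 0.07, with 0 above 0.1. Most of the members were nonetheless higher in B than in A in every group except shSlpi-1, as given above. The cause of these changes, or of the differences between A and B, was not tested. The ratio of large to small subunit sums in shSerpine2-1, relative to shRenilla, was 1.01 with all members and 0.994 without Rpl4. Of the 29 named calls, 8 were lost with no filter, 4 with only the compared libraries, 3 each with quantile normalization and total-read scaling, 2 each with voom and centring, and up to 9 without a single library. Few reads limit what can be said of Rpl30, Rps27, Rpl34 and the 4 untested members, and why they had few was not tested.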

Other observations

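Mitochondrial ribosomes have their own proteins, encoded in the nucleus. Of 76 such genes tested, 12 rose with Serpine2 lowered (15.8%, where 10.7% of all tested genes did) and 0 fell, and 25 rose (32.9%, where 16.5% of all tested genes did) and 2 fell (2.63%, against 18.3%) with Slpi lowered, with medians of 0.11 and 0.17. Mrpl9 (0.45), Mrpl11 (0.47), Mrpl28 (0.52) and Mrpl42 (0.38) had the smallest p with Slpi lowered. Complex I, which feeds electrons into the respiratory chain, is another family of short mRNAs. Of 35 tested subunits, 8 rose with Serpine2 (22.9%) and 20 with Slpi lowered (57.1%) and 0 fell, with medians of 0.12 and 0.27. Ndufb5 (0.60), Ndufv1 (0.66), Ndufa9 (0.53) and Ndufb3 (0.44) had the smallest p. By line the complex I medians were 0.00 (shSerpine2-1), 0.28 (shSerpine2-2), 0.18 (shSlpi-1) and 0.34 (shSlpi-2), beside 0.01, 0.18, 0.24 and 0.37 for the cytosolic ribosomal protein genes. The comparisons share the shRenilla libraries, and no difference between these families was tested.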
